A study of Mus musculus with 38 samples.

Results

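The ERV1 elements of the mouse genome were examined in maps of LAP2B, an inner nuclear membrane protein made by the gene Tmpo. Members were the 68848 transposable element (TE) copies whose deposited annotation gave the family ERV1, out of 3793386 copies in all, and they fell into 121 subfamilies by name. The choice used the annotation only and no measured value. All 121 subfamilies are accounted for here: 119 held at least 10 copies and were tested among 1205 repeat families, and MER83A-int (1 copy) and MER83B-int (7 copies) were not tested.

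CUT&RUN, in which an antibody directs a nuclease to cut and release the DNA near its target, was run on 200000 cells per replicate with yeast DNA added as a spike-in. LAP2B was mapped in 3 libraries of each of 4 genotypes at 2 stages, and LMNB1 (lamin B1, a filament protein of the nuclear lamina) and the IGG control were mapped in 3 WT libraries per stage. The stages were mouse embryonic stem cells held in the naive state with 2i and LIF (naive mESCs) and epiblast-like cells made with FGF and activin A (EpiLCs), both collected at 48 h. The genotypes were wild type (WT), LBRKO, made from WT cells and lacking the lamin B receptor, TKO, a lamin triple knockout, and QKO, which lacks the lamins and the receptor. QKO was a single clone made from TKO cells, and WT and TKO were separate lines from littermates, so genotype and line cannot be told apart. All lines were XY, but the study's methods record an extra copy of the same autosome in every TKO population, and loss of the Y chromosome in part of them. Most WT cells had normal ploidy, with subpopulations that lacked the Y chromosome, in part with extra autosomes. The part of chromosome copy number in the differences between lines was not tested. Nothing in the labels says that replicates were separate cultures, so p-values measure the spread between these libraries. DNA-based maps cannot check the genotypes or the cell types against marker genes.

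ERV1 is the class of endogenous retroviruses related to gammaretroviruses. A complete copy carries an internal part with the viral genes, named "-int" in the annotation, between a pair of long terminal repeats (LTRs) that hold the promoter, and recombination between the LTRs leaves solo LTRs behind. In mouse, the class ranges from murine leukaemia virus (MLV) and its relatives, some of which can still make virus particles, to remnants shared with other mammals. LAP2B and the lamin B receptor sit in the inner nuclear membrane, where the lamina and these proteins hold heterochromatin at the nuclear edge.

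Summed over the copies of the TE table, the recovered reads came to 37407387 to 131279150 per library, and the median copy had 8 to 29 reads. These sums count a read again for every copy that shares its bin, so they are not the sequencing depth. The sources used here do not describe how coverage bins were joined to copies, and the bin width named in the methods and the steps of the values do not match, so the width is not settled. Values were read as sums of scaled coverage over the bins a copy touches, not divided by length, and 48.0% of ERV1 copies had the same values in every library as another copy, as copies in a shared bin would (39.5% shared with a copy outside ERV1; 55.1% over all TE copies). Reads from near-identical copies cannot be placed with certainty. Copies were therefore averaged by subfamily, and all levels below are subfamily means. Those called spike-in scaled are as deposited. Relative levels are further divided by the value of the median TE family of that library, whose level is thus 1. A subfamily was called at an adjusted p under 0.05 (limma, adjusted over all 1205 families).

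Relative LAP2B was set against relative IGG in WT cells. Each is divided by its own median TE family. A log2 ratio of 0 thus means equal levels relative to the median family, not a signal at background. ERV1 subfamilies lay on both sides of 0. The log2 ratio of LAP2B to IGG on the relative scale had a median over ERV1 subfamilies of 0.0037 in naive mESCs (range -0.88 to 0.44), and 62 of 119 subfamilies were above 0. In EpiLCs the median was 0.0011, with 60 above 0. The corresponding medians for LMNB1 were -0.040 (49 above 0) and -0.024 (53 above 0). The antibody tables were scaled separately, so these ratios are descriptions without a test. Of single ERV1 copies, 46.6% had a log2 ratio of LAP2B to IGG above 0 on the relative scale in naive WT cells. That share was 43.6% of all TE copies, 47.8% of ERVK, 42.6% of ERVL-MaLR and 60.6% of L1 copies.

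Within the class the named groups were spread along this ratio. The 4 highest subfamilies in naive WT cells were MER67D (0.44), MER67C (0.26), RLTR41C (0.22) and RLTR30C_MM (0.20), all of them LTRs. The 4 lowest were LTRIS4B (-0.88), MMERGLN_LTR (-0.49), RLTR1B-int (-0.43) and RLTR1B (-0.35). The LTRIS4B ratio rests in part on its highest IGG copy, whose share of the IGG sum is given below. Of the 62 tested subfamilies with MER, LTR, MLTR and related names, 42 were above 0 (median 0.05). None of the 2 GLN or 5 VL30 subfamilies, and 2 of the 11 subfamilies of the MuRRS elements and their LTRIS repeats, were above 0, with medians of -0.41, -0.14 and -0.16. GLN and VL30 elements are gammaretrovirus-like families of the mouse, and VL30 elements are known for RNAs that viruses can package. In naive mESCs the LAP2B and LMNB1 ratios were both above 0 for 49 of the 119 subfamilies and both below 0 for 57. Both ratios share the IGG libraries as denominator, which by itself makes them vary together, so no likeness of the 2 proteins is read from these counts.

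On the spike-in scale, LAP2B fell over every tested ERV1 subfamily in lamin-deficient naive cells. The median ERV1 level was 0.613, 0.979 and 0.692 in the 3 naive WT libraries, 0.290, 0.452 and 0.336 in TKO, and 0.214, 0.180 and 0.208 in QKO. No TKO or QKO library reached the lowest WT library. All 119 subfamilies were lower in TKO (99.7% of all families called, 0.083% higher and 99.6% lower) and in QKO (99.8%, with 0.083% higher), with median log2 changes of -0.94 (range -1.37 to -0.48) and -1.65 (-2.53 to -0.84). The loss was not particular to ERV1, as the median over all families was -1.02 in TKO and -1.75 in QKO. The mean naive QKO level of 0.200 ± 0.0180 compares with 0.123 ± 0.0280 for naive WT IGG (SD, n = 3), tables that were scaled apart.

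LBRKO cells kept more of the deposited signal, at 0.654 ± 0.0893 in naive mESCs against 0.761 ± 0.193 in WT (SD, n = 3). By limma 1 ERV1 subfamily was higher and 6 were lower (9.21% of all families called, 0.083% higher and 9.13% lower), with a median log2 change of -0.19. By the median over copies none was higher and 23 lower (22.5%). The 7 calls rest on single libraries, since the count was 0 and 1 without LBRKO replicates 1 and 2, and 11 and 2 without WT replicates 1 and 2.

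EpiLCs had ERV1 levels of 0.679 ± 0.145 (WT), 0.648 ± 0.0292 (LBRKO), 0.484 ± 0.138 (TKO) and 0.296 ± 0.0133 (QKO; SD, n = 3). All 119 subfamilies fell in QKO (99.9% of all families), by a median of 1.04 on the log2 scale. In TKO 9 fell (15.6% of all families), and the TKO libraries at 0.637, 0.449 and 0.368 overlapped those of WT. That count was 117 without TKO replicate 1 or without WT replicate 2, and 0 without any of the other 4 libraries. In LBRKO limma called 0 subfamilies (0% of all families), 5 had an unadjusted p under 0.05, and a fit on recovered reads with the spike-in factor called 2. The IGG level was 0.123 ± 0.0280 in naive mESCs and 0.249 ± 0.145 in EpiLCs, where 1 of the 3 libraries was at 0.416 and the others at 0.176 and 0.156.

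**Figure D1:**
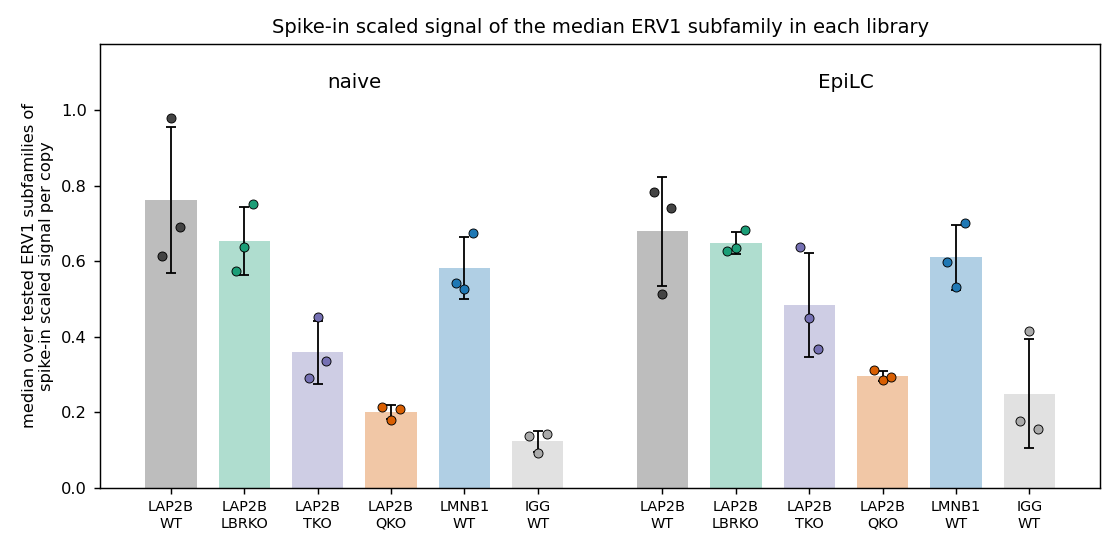
Median deposited LAP2B, LMNB1 and IGG signal over tested ERV1 subfamilies in each library (points), with the mean (bars) and SD (error bars) of 3 libraries per group, on a linear axis in spike-in scaled units. The naive QKO libraries sit at 0.180 to 0.214, below every naive WT library (0.613 to 0.979).

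The relative scale asks over which ERV1 subfamilies LAP2B signal was higher or lower than in WT, relative to other repeats in the same library. This signal includes background, so a relative rise does not measure LAP2B that was kept. The naive QKO level of 0.200 stands beside 0.123 for IGG, in tables scaled apart. The part of background in the relative changes given here and below was not tested. In naive TKO 64 rose and 11 fell (54% of all families called, 33.3% higher and 20.7% lower), and in naive QKO 65 rose and 36 fell (80.8%, of which 38.2% higher and 42.7% lower). The share of ERV1 subfamilies that rose was 53.8% in TKO and 54.6% in QKO. It compares with 51.8% and 35.3% of ERVK, 46.2% and 56.9% of ERVL-MaLR, 17.2% and 23.3% of ERVL, and 11.6% and 26.5% of L1 families. In naive LBRKO 32 rose and 47 fell (72.8%, 31% higher and 41.8% lower). These comparisons share the WT libraries, and median ERV1 changes were small, at 0.10 in TKO, 0.12 in QKO and -0.03 in LBRKO. The zero point of the scale matters for this split. When libraries were divided by their mean over all copies, the median of all families moved from 0.02 to -0.09 in TKO and from -0.02 to -0.27 in QKO, and the ERV1 calls became 33 higher and 36 lower in TKO and 29 higher and 70 lower in QKO. Over all families the same division gave 12.3% higher and 53.5% lower in TKO, and 13% and 74.7% in QKO. In LBRKO it gave 24 higher and 59 lower for ERV1, beside 21.5% and 50.1% of all families. DESeq2 gave 45 higher and 37 lower there (75.2% of all families called in either direction) and edgeR 40 and 38 (73.9%). With the median over copies in place of the mean, limma called 12 higher and 38 lower for LBRKO (45.4% of all families in either direction), 26 and 4 for TKO (18.3%) and 29 and 28 for QKO (53.3%).

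**Figure D2:**
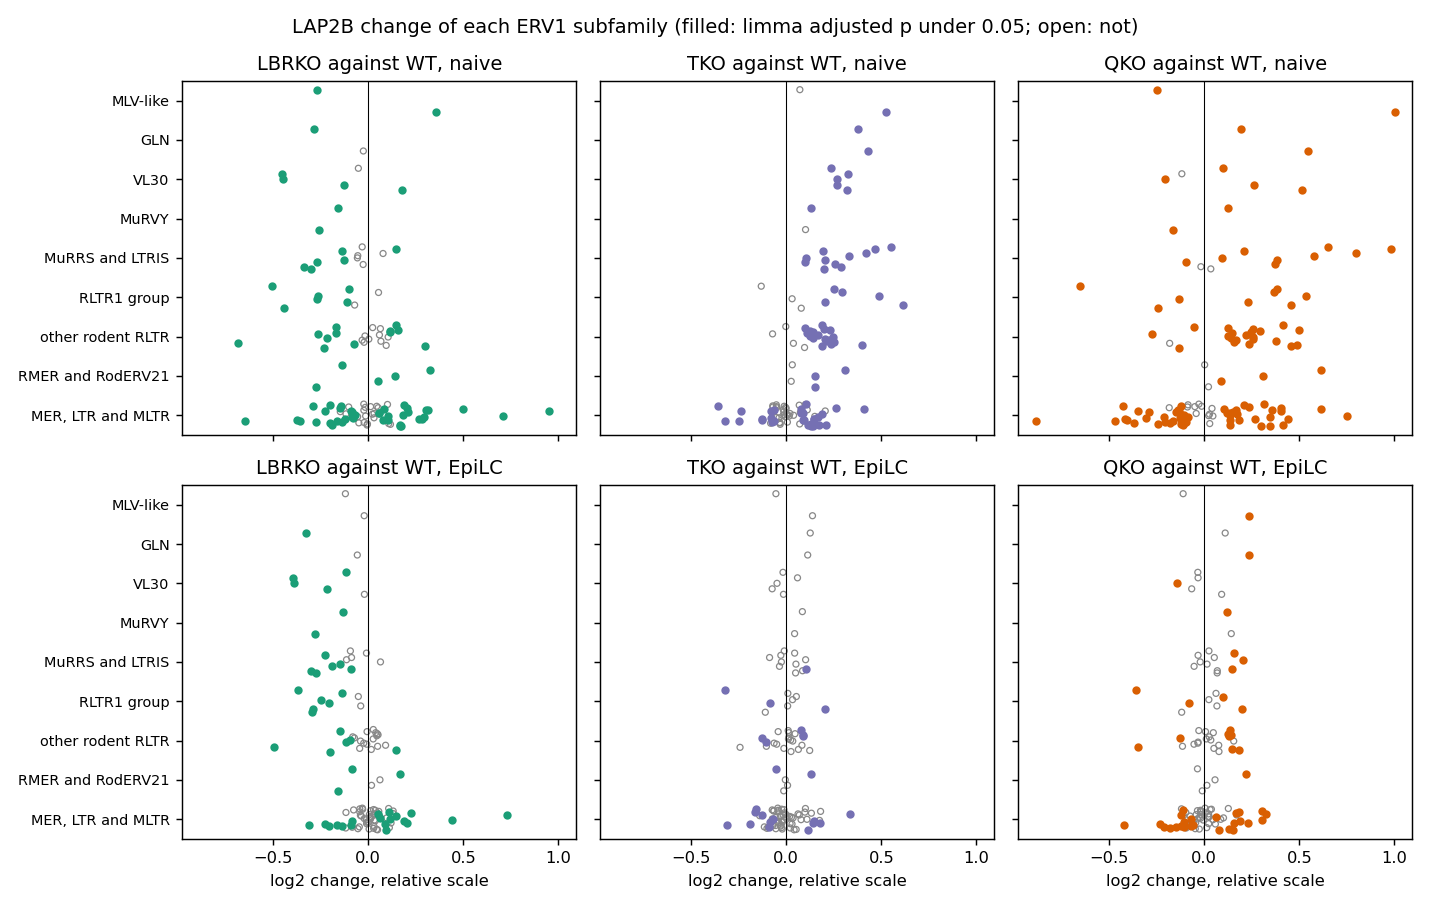
Log2 change of relative LAP2B against WT for each tested ERV1 subfamily, by name group, mutant and stage, where 0 is no change relative to the median TE family and filled points are called. In naive TKO cells all 11 MuRRS and LTRIS subfamilies lie above 0, with a median of 0.25.

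Among MLV-like elements, the LTR named RLTR4_Mm (245 copies) rose in all 3 naive mutants. WT libraries had relative levels of 1.12, 0.973 and 1.26, LBRKO libraries of 1.37, 1.45 and 1.53, TKO libraries of 1.59, 1.62 and 1.71 and QKO libraries of 2.64, 1.98 and 2.39. Every mutant library lay above every WT library, and QKO lay above TKO. The log2 change was 0.35 ± 0.09 (SE) for LBRKO (adjusted p = 0.0018), 0.52 ± 0.09 in TKO (adjusted p = 0.00013) and 1.00 ± 0.09 in QKO (adjusted p = 6.7e-09). The rise is relative. On the spike-in scale RLTR4_Mm had 0.915 ± 0.174 in LBRKO against 0.789 ± 0.121 in WT (SD, n = 3), overlapping and not called (log2 change 0.20, adjusted p = 0.67). In TKO it fell to 0.533 ± 0.135 (SD, n = 3, log2 change -0.54, adjusted p = 0.013), with libraries that overlapped WT. In QKO it fell to 0.419 ± 0.0849 (SD, n = 3, log2 change -0.84, adjusted p = 9.7e-05). The log2 ratio to WT IGG went from -0.30 in WT to 0.70 in QKO, which restates the QKO change, as both values share the IGG denominator. On the relative scale all 3 QKO libraries exceeded all 3 WT libraries in 48.6% of its copies, against 25.9% of all TE copies. The MLV internal part, MuLV-int (33 copies), fell in LBRKO (-0.27 ± 0.06, adjusted p = 0.00034) and in QKO (-0.25 ± 0.06, adjusted p = 0.00064), and had a change of 0.07 in TKO that was not called. Whether LTR and internal part differ was not tested.

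Both parts of the GLN elements rose in naive TKO cells, where 33.3% of all families rose. MMERGLN_LTR (420 copies) was at 1.17 ± 0.0743 (SD, n = 3) and at most 1.24 in naive WT, at 1.59, 1.59 and 1.63 in TKO and at 1.80, 1.61 and 1.84 in QKO. All TKO and QKO libraries lay above WT, and the log2 changes were 0.43 ± 0.05 (adjusted p = 5.1e-06) and 0.55 ± 0.05 (adjusted p = 2.6e-08). LBRKO, at 1.09, 1.19 and 1.15, overlapped WT (-0.03, not called). MMERGLN-int (471 copies) rose in TKO (0.38) and fell in LBRKO (-0.29, adjusted p = 0.0016, with libraries that overlapped WT). Its QKO call of 0.19 turned to -0.05 when libraries were divided by their mean.

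All 5 VL30 subfamilies rose in naive TKO, beside 33.3% of all families, and were also called higher after division by the mean over copies, beside 12.3%. The LTR RLTR6_Mm (246 copies) had levels of 1.23, 1.18 and 1.34 (WT), 1.38 to 1.50 (LBRKO), 1.60, 1.54 and 1.59 (TKO) and 1.90, 1.65 and 1.94 (QKO). It was called higher in each, by 0.17, 0.32 and 0.52 on the log2 scale. The internal part RLTR6-int (573 copies) had levels of 0.963, 0.839 and 0.995 (WT), 0.573, 0.773 and 0.621 (LBRKO), 1.17, 1.20 and 1.19 (TKO) and 0.860, 0.826 and 0.862 (QKO). LBRKO and TKO thus lay on opposite sides of WT without overlap (-0.46 ± 0.08, adjusted p = 3.3e-05, and 0.32, adjusted p = 0.0017), whereas QKO overlapped WT (-0.12, adjusted p = 0.16; -0.36 and called after division by the mean). RLTR6B_Mm (627 copies) fell in LBRKO (-0.45 ± 0.06, adjusted p = 1.4e-06) and QKO (-0.21, adjusted p = 0.0035) and rose in TKO (0.27). RLTR6C_Mm (117 copies) fell in LBRKO (-0.13, with libraries that overlapped WT) and rose in TKO (0.27) and QKO (0.26). By the median over copies neither rise was called (0.22, adjusted p = 0.12, and -0.06, adjusted p = 0.62), and the QKO value was 0.01 after division by the mean (adjusted p = 0.8). MMVL30-int (1224 copies), another internal part, rose in TKO by 0.24 (adjusted p = 0.00011), and its 0.10 in QKO turned to -0.15 after division by the mean.

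MuRVY elements are known for having multiplied on the mouse Y chromosome, which part of the WT and TKO cells had lost per the study's methods. The share of cells that held it in these libraries was not tested. MURVY-LTR (2141 copies) had naive levels of 0.620, 0.595 and 0.651 (WT), 0.529, 0.582 and 0.528 (LBRKO), 0.670, 0.703 and 0.696 (TKO) and 0.688, 0.674 and 0.696 (QKO). No mutant library overlapped WT, and the differences were -0.16, 0.13 and 0.12. After division by the mean the TKO value was 0.02 and not called (adjusted p = 0.52), and the QKO value was -0.11 and called lower (adjusted p = 0.0055). MURVY-int (651 copies) fell in LBRKO (-0.26, adjusted p = 0.004) and QKO (-0.17, adjusted p = 0.044, with libraries that overlapped WT), and its 0.10 in TKO was not called.

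All 11 subfamilies of the MuRRS elements, retrovirus-related sequences with LTRs named LTRIS, rose in naive TKO, beside 33.3% of all families. After division by the mean 7 were higher and none lower (12.3% and 53.5% of all families). LTRIS2 (1433 copies) was at 1.55, 1.42 and 1.56 in WT, between 2.09 and 2.38 in TKO and at 2.64, 2.17 and 2.50 in QKO, with log2 changes of 0.55 ± 0.05 (adjusted p = 4.2e-07) and 0.65 ± 0.05 (adjusted p = 1.6e-09). LTRIS3 (150 copies) had levels of 1.39, 1.28 and 1.28 (WT), 1.44, 1.43 and 1.54 (LBRKO), 1.89, 1.77 and 1.92 (TKO) and 2.91, 2.39 and 2.82 (QKO). The 4 genotypes did not overlap, and the changes were 0.15 (adjusted p = 0.026), 0.47 ± 0.06 (adjusted p = 3.1e-06) and 0.98 ± 0.06 (adjusted p = 9.7e-12). LTRIS4A (221 copies) rose by 0.42 in TKO and 0.80 in QKO, but the QKO change was 0.09 (adjusted p = 0.21) by the median over copies. LTRIS4B (71 copies) rose by 0.33 and 0.58, which became 0.14 (adjusted p = 0.086) and 0.13 (adjusted p = 0.074) without the copies highest in IGG. LTRIS_Mus (912 copies) rose by 0.25 and 0.37, and LTRIS6 by 0.20 and 0.38, the latter pair at 0.10 and 0.05 and not called by the median over copies. In QKO 8 rose and 1, LTRIS_Mm (550 copies, -0.10, adjusted p = 0.0041), fell, beside 38.2% and 42.7% of all families; after division by the mean 6 were higher and 4 lower (13% and 74.7%). The weak TKO calls of LTRIS5 and LTRIS_Mm (both 0.10) and the QKO calls of LTRIS4 (0.21) and LTRIS5 (0.09) changed sign under that division. In LBRKO 1, LTRIS3, rose and 5 fell (31% and 41.8% of all families). After division by the mean 0 were higher and 7 lower (21.5% and 50.1%), so the LTRIS3 call was not kept. Among the 5 falls were the internal parts MuRRS-int (940 copies, -0.34 ± 0.05, adjusted p = 7.2e-06) and MuRRS4-int (2526 copies, -0.30, adjusted p = 1.7e-05). Both internal parts rose in TKO (0.29 and 0.20) and had QKO values of -0.02 and 0.03 that were not called.

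Among the RLTR1 subfamilies, RLTR1 itself (66 copies) had the lowest log2 change in naive LBRKO and in naive QKO. Relative levels were 1.18, 1.26 and 1.29 (WT), 0.822, 0.933 and 0.788 (LBRKO), 1.11, 1.08 and 1.18 (TKO) and 0.708, 0.781 and 0.777 (QKO). LBRKO and QKO lay below WT (-0.51 ± 0.06, adjusted p = 3.1e-07, and -0.65 ± 0.06, adjusted p = 5.2e-09), and TKO was not called (-0.13, adjusted p = 0.064; -0.24 and called after division by the mean). RLTR1D2_MM (181 copies) was at 1.78, 1.69 and 1.79 in WT and at 2.73, 2.60 and 2.90 in TKO, a rise of 0.61 ± 0.06 (adjusted p = 6.8e-07), with 0.46 in QKO. RLTR1B-int (988 copies) rose by 0.49 in TKO and 0.54 in QKO, the latter 0.04 (adjusted p = 0.62) by the median over copies, and fell by 0.26 in LBRKO. Over the 8 subfamilies 5 rose and none fell in TKO, 5 rose and 3 fell in QKO, and 6 fell and none rose in LBRKO, where 31% of all families rose and 41.8% fell (33.3% and 20.7% for TKO, 38.2% and 42.7% for QKO). After division by the mean 5 were higher and 2 lower in TKO, 4 higher and 3 lower in QKO, and 7 lower and none higher in LBRKO.

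Among subfamilies of at least 50 copies the largest fall in naive LBRKO, TKO and QKO was that of MER67D, an LTR of 506 copies that also had the most LAP2B over IGG in naive WT cells. The same WT LAP2B libraries enter that rank and the falls, so they are not independent. Naive levels of MER67D were 1.26, 1.42 and 1.24 (WT), 0.819, 0.806 and 0.766 (LBRKO), 1.07, 0.936 and 1.08 (TKO) and 0.646, 0.697 and 0.646 (QKO). Each mutant lay below WT without overlap, and QKO was lowest. The log2 changes against WT were -0.65 ± 0.05 for LBRKO (adjusted p = 9.2e-10), -0.32 for TKO (adjusted p = 4e-05) and -0.88 ± 0.05 for QKO (adjusted p = 5.5e-12). On the spike-in scale it went from 0.953 ± 0.313 to 0.118 ± 0.00304 in QKO (SD, n = 3; log2 change -2.53). On the relative scale all 3 LBRKO libraries were below all 3 WT libraries in 42.3% of its copies, against 17.9% of all TE copies. Its log2 ratio to WT IGG went from 0.44 to -0.44 in QKO, which again restates the QKO change. MER89-int (-0.36, -0.25 and -0.47 in LBRKO, TKO and QKO) and MER57E2 (-0.12, -0.13 and -0.42) also fell, the latter with adjusted p = 0.044 in LBRKO, where its libraries overlapped WT, and 0.043 in TKO.

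Other subfamilies with MER and LTR names rose. LTR73 (112 copies) had levels of 1.14, 1.13 and 1.09 (WT), 1.67, 1.55 and 1.65 (LBRKO), 1.56, 1.46 and 1.54 (TKO) and 2.02, 1.64 and 1.66 (QKO). No mutant library overlapped WT, and the changes were 0.50 ± 0.05 (adjusted p = 1e-07), 0.41 (adjusted p = 5.7e-06) and 0.61 (adjusted p = 3.2e-09). MER57-int rose by 0.29, 0.17 and 0.35, and RMER21A (501 copies), an LTR of the RMER group, by 0.32, 0.31 and 0.62. Of the 62 MER, LTR, MLTR and related subfamilies, 18 rose and 11 fell in TKO, 24 rose and 26 fell in QKO, and 21 rose and 20 fell in LBRKO; division by the mean turned these counts to 3 and 30, 8 and 45, and 15 and 26. The 22 other rodent RLTR subfamilies had 18 rises and no fall in TKO, 18 and 3 in QKO and 5 and 7 in LBRKO, which became 9 and 2, 6 and 9, and 5 and 9. Over all families the shares that rose and fell were 33.3% and 20.7% (TKO), 38.2% and 42.7% (QKO) and 31% and 41.8% (LBRKO), and after the division 12.3% and 53.5%, 13% and 74.7%, and 21.5% and 50.1%. Some subfamilies of fewer than 50 copies changed more, and they were picked after their values were seen: MER101B (30 copies, 0.95) and MER4B-int (24 copies, 0.71) rose and RLTR47_MM (33 copies, -0.69) fell in LBRKO, and LTR109A2 (38 copies, -0.36) fell in TKO.

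**Figure D3:**
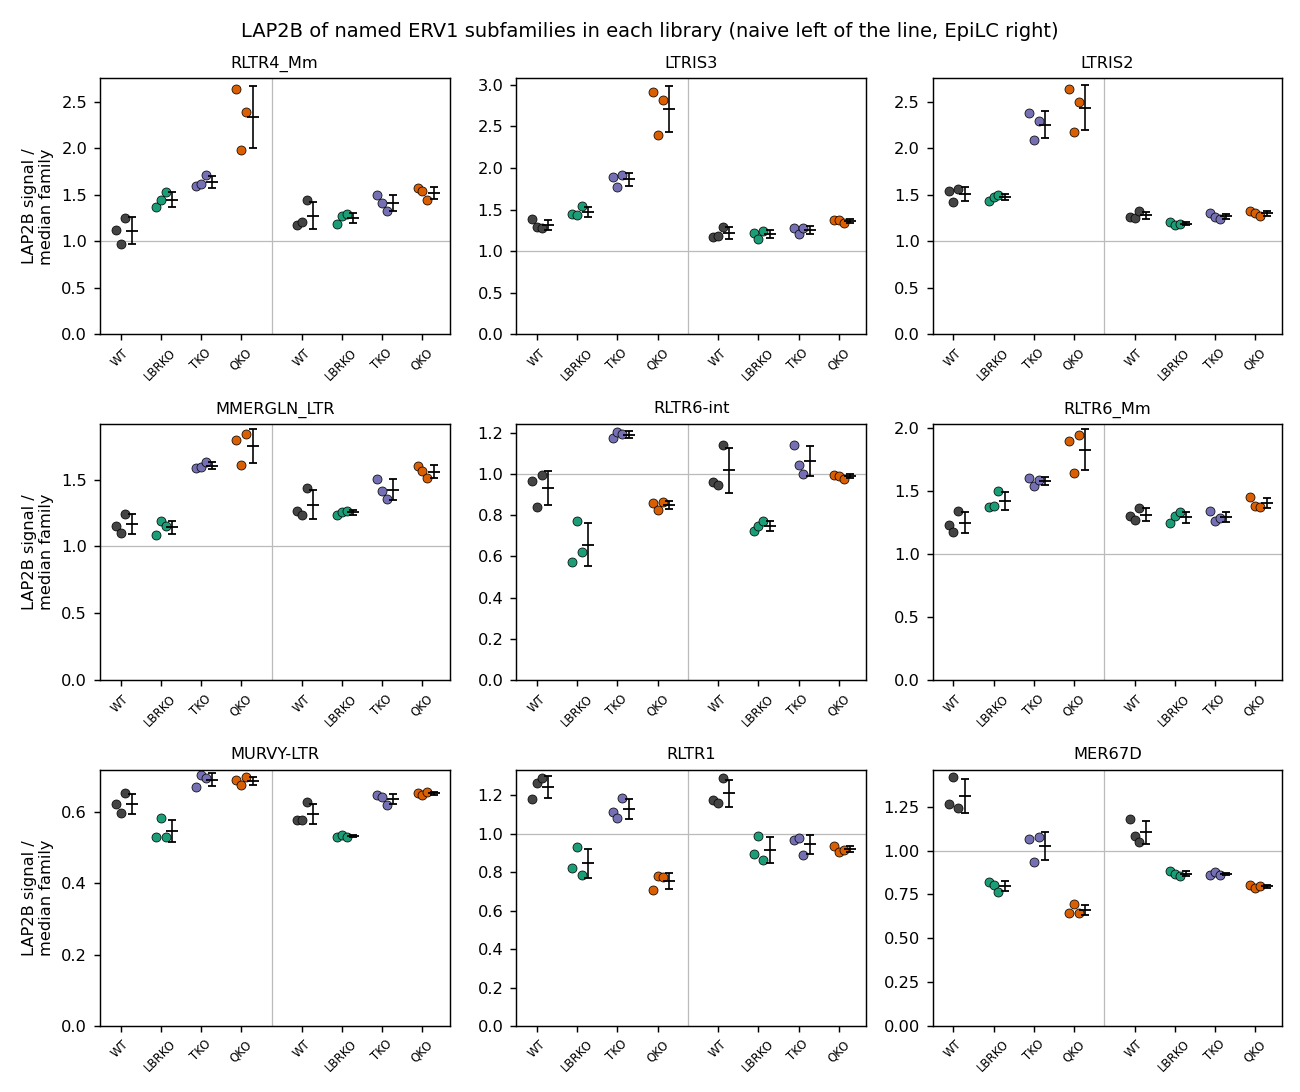
Relative LAP2B level of 9 named ERV1 subfamilies in each library (points; bars show the mean and SD of 3 libraries), with naive mESCs left and EpiLCs right of the line and 1 being the median TE family. In naive cells RLTR4_Mm and LTRIS3 are at 1.39 or less in WT and 1.98 or more in QKO, while MER67D is at 0.646 to 0.697 in QKO.

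By part of the element, 12 of the 22 internal subfamilies fell and 5 rose in naive LBRKO (median -0.16), while in TKO 11 rose and 1 fell (median 0.13) and in QKO 9 rose and 9 fell (median 0.00). Of the 97 LTR subfamilies, 35 fell and 27 rose in LBRKO (median -0.02), 53 rose and 10 fell in TKO (median 0.10), and 56 rose and 27 fell in QKO (median 0.13). Over all 1205 families 31% rose and 41.8% fell (LBRKO), 33.3% rose and 20.7% fell (TKO) and 38.2% rose and 42.7% fell (QKO). After division by the mean the internal subfamilies had 5 higher against 16 lower (LBRKO), 5 against 5 (TKO) and 4 against 16 (QKO). The LTR subfamilies then had 19 higher against 43 lower (LBRKO), 28 against 31 (TKO) and 25 against 54 (QKO). Over all families the division gave 21.5% higher and 50.1% lower (LBRKO), 12.3% and 53.5% (TKO), and 13% and 74.7% (QKO). The excess of rises over falls in TKO and in the QKO LTRs thus depended on the scaling. The difference between the parts was not tested.

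A subfamily mean can rest on few copies. For RLTR4_Mm and LTRIS3 the rise was spread over copies as the reads were placed. The median over copies gave QKO changes of 1.09 and 0.79. The highest 1% of copies, ranked anew in each group, held 3.97% and 9.33% of the summed signal in naive WT against 4.35% and 8.70% in QKO. Reads of near-identical copies may be spread among them, so these values cannot tell how many copies changed. For other subfamilies the rise was concentrated. In LTRIS4A the 3 highest copies held 6.68% of the sum in WT and 15.6% in QKO. In RLTR1B-int the 10 highest copies held 4.91% and 17.8%, and in MMERGLN_LTR the 5 highest held 6.35% and 18.5% with a median change of 0.29. The highest LTRIS4B copy held 6.47% in WT, 21.5% in QKO and 33.5% in IGG. Of the 41 subfamilies named by the rule, 30, 35 and 37 were called in naive LBRKO, TKO and QKO (72.8%, 54% and 80.8% of all families). The rule picked part of them by these same calls, which by itself raises the counts. By the median over copies 22, 20 and 23 of these calls were kept. Among those lost were LTR73 in TKO (0.15) and both MuRRS internal parts in TKO (0.24 and 0.05). Over single ERV1 copies, all 3 naive QKO libraries were below all WT libraries on the spike-in scale in 73.8%, against 69.5% of all TE copies.

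Changes were set beside the LMNB1 level of WT cells by parting the 1205 families into 3 classes by their naive LMNB1 to IGG ratio. Of the 49 ERV1 subfamilies in the class with least LMNB1, 38 rose and none fell in TKO (77.6% and 0%, against 63.8% and 1.75% of all families in the class), and 40 rose and 5 fell in QKO (81.6% and 10.2%, against 75.6% and 8.98%). Of the 28 in the class with most, 5 rose and 5 fell in TKO (17.9% each, against 11.7% and 45.5%), and 4 rose and 17 fell in QKO (14.3% and 60.7%, against 4.48% and 82.1%). Over all families the classes had the same order. The lowest ERV1 class in LBRKO had 21 rises and 17 falls (42.9% and 34.7%, against 59.9% and 18.2% of all families), and the highest had 1 and 14 (3.57% and 50%, against 3.23% and 77.1%). The LMNB1 and IGG libraries do not enter the LAP2B changes, but the classes are not independent of them. The naive WT ratios of LMNB1 and LAP2B to IGG had a Pearson correlation of 0.94 over the 119 ERV1 subfamilies, with IGG shared. The classes thus also sort by WT LAP2B, which does enter the changes. Class counts are given for the relative scale only.

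Directly compared with TKO, naive QKO cells had 31 ERV1 subfamilies higher and 40 lower (68.8% of all families called, 38.3% lower). Division by the mean gave 12 and 76, beside 11.2% and 66% of all families. The median over copies gave 8 and 23 (35.2% of all families in either direction), and edgeR 43 and 35 (68.2%). Which direction held more calls thus depended on the setting. Higher in QKO were LTRIS3 (0.51), RLTR4_Mm (0.48) and LTRIS4A (0.38), and lower were MER67D (-0.56), RLTR1 (-0.52), RLTR6B_Mm (-0.47) and RLTR6-int (-0.44). Internal parts had 3 rises and 13 falls in this contrast. In EpiLCs the same contrast gave 0 calls by limma (0% of all families), 11 unadjusted p-values under 0.05 and 1 call by DESeq2.

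In EpiLCs fewer ERV1 subfamilies moved relative to other repeats. The paper reports that part of the LAP2B signal in WT EpiLCs lay outside the domains bound by LMNB1. It therefore did not use LAP2B to map such domains in mutant EpiLCs. It also reports that few QKO cells survived the change to EpiLCs. All EpiLC values here are thus LAP2B signal, and whether they follow contact with the lamina was not tested. In LBRKO 14 rose and 33 fell (47.6% of all families called, 18.9% higher and 28.7% lower), in TKO 11 rose and 13 fell (33%, 14.6% and 18.4%), and in QKO 27 rose and 18 fell (49.3%, 22.6% and 26.7%). Division by the mean gave 17 and 33, 6 and 32, and 19 and 53, beside 20.6% and 26.1%, 7.72% and 31.2%, and 11% and 45.6% of all families. With the median over copies the calls dropped to 22 for LBRKO and 7 for QKO (18.8% and 12% of all families), and limma made 0 for TKO (0.332%), where edgeR and DESeq2 on the means gave 26 and 30. Shares of all families called by edgeR and DESeq2 are not given here. The TKO count fell to 8 without WT replicate 1 and 14 without TKO replicate 2. Of the 22 internal subfamilies 4 rose and 10 fell in LBRKO, among the latter MuRRS-int (-0.30), RLTR6-int (-0.39) and MMERGLN-int (-0.33), and the LTR RLTR6B_Mm also fell (-0.39). In QKO, MMERGLN_LTR (0.24), LTRIS_Mus (0.15), LTRIS3 (0.16) and RLTR4_Mm (0.24, adjusted p = 0.038) rose, none of them called by the median over copies, the last with libraries at 1.18, 1.21 and 1.45 in WT and 1.57, 1.54 and 1.44 in QKO, which overlapped. MER67D fell in all 3, from 1.18, 1.08 and 1.05 in WT to 0.884, 0.865 and 0.858 (LBRKO, change -0.31), 0.863, 0.876 and 0.862 (TKO, -0.31) and 0.803, 0.789 and 0.797 (QKO, -0.42 ± 0.05, adjusted p = 1.9e-06). RLTR1 fell as well, by 0.37, 0.32 and 0.36. By the median over copies the TKO changes of MER67D and RLTR1 were -0.32 and -0.33 and not called (adjusted p = 0.065 for both), while those in LBRKO and QKO were called.

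Whether a mutant's effect differed between stages was tested as an interaction (EpiLC minus naive). The limits given above for LAP2B in EpiLCs hold for this test too, so it compares signal and not lamina contact. It was called for 14 ERV1 subfamilies in LBRKO (26.7% of all families), 39 in TKO (18.6%) and 62 in QKO (53.8%), and in 38 of the 39 in TKO the change against WT was lower in EpiLCs, as for most calls over all families (16.5% lower and 2.07% higher). With the median over copies the counts were 1, 4 and 11, and leaving out 1 library gave 7 to 22 in LBRKO. The shares of all families under these settings are not given, so the drop is not read as particular to ERV1. The LBRKO calls were 8 higher and 6 lower (14.3% and 12.4% of all families). Division by the mean turned them to 29 and 3 (28.4% and 5.48%). In QKO 47 were lower and 15 higher (29% and 24.7% of all families), but division by the mean gave 15 lower and 59 higher, beside 7.97% and 64.7% of all families. The TKO split became 23 lower and 5 higher, beside 7.05% and 9.46% of all families. LTRIS2 showed this most plainly in TKO (-0.56, adjusted p = 0.00014): its EpiLC libraries were at 1.26, 1.25 and 1.33 in WT, 1.30, 1.26 and 1.24 in TKO and 1.32, 1.31 and 1.27 in QKO, so the naive rise had no counterpart there. In QKO the interaction was -0.82 for LTRIS3 (adjusted p = 2e-07) and -0.76 for RLTR4_Mm (adjusted p = 7.9e-05), and 0.46 for MER67D (adjusted p = 2.6e-05), whose fall was smaller in EpiLCs.

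**Figure D4:**
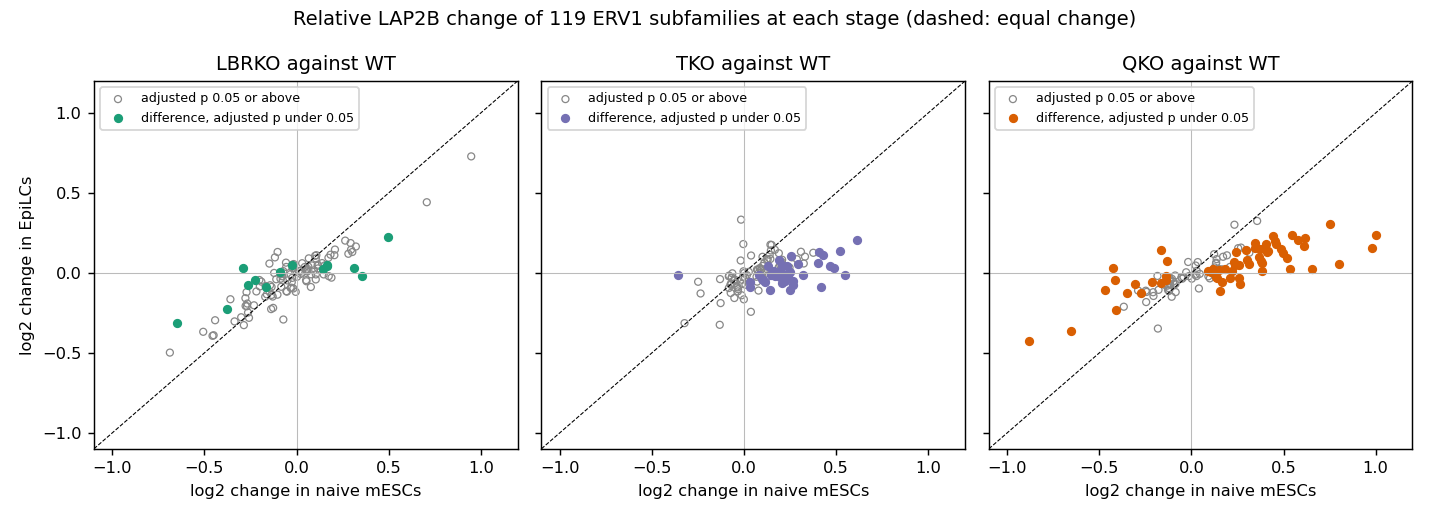
Log2 change of relative LAP2B against WT in naive mESCs (horizontal) and EpiLCs (vertical) for each ERV1 subfamily, by mutant, where the dashed line marks equal change and filled points are called for the difference between stages. RLTR4_Mm in QKO lies at 1.00 in naive mESCs and 0.24 in EpiLCs, and MER67D at -0.88 and -0.42.

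Between the WT stages, LAP2B was higher in EpiLCs over 8 ERV1 subfamilies and lower over 19 (27.6% of all families called, 14.2% higher and 13.4% lower). Division by the mean gave 3 and 44, beside 5.98% and 26.1% of all families, and the median over copies 1 and 2 (1.91% of all families). LTRIS4 (0.18 ± 0.03, adjusted p = 0.0015), RLTR1B (0.17) and LTRIS_Mus (0.11) were higher, and RLTR41C (-0.30 ± 0.06, adjusted p = 0.0022), MER67D (-0.23) and LTRIS2 (-0.22) were lower. Of these 6, LTRIS4 and RLTR41C were also called by the median over copies (0.32 and -0.42). The IGG libraries were lower in EpiLCs over RLTR41C, MER67D and LTRIS2, by log2 changes of -0.23, -0.15 and -0.25 that were not called (adjusted p = 0.28, 0.14 and 0.079). LAP2B over IGG went from 0.22 to 0.15 for RLTR41C and from 0.44 to 0.37 for MER67D, and was -0.04 and -0.01 for LTRIS2, so the part of the IGG change in these calls was not tested. The count was 10 without EpiLC replicate 2. LMNB1 gave 0 calls by limma (0.913% of all families, 0.083% higher and 0.83% lower), 21 unadjusted p-values under 0.05 and 7 calls by DESeq2. IGG gave 0 (0.249%, with 0.083% higher), 22 unadjusted, 1 by edgeR and 7 by DESeq2. With families of at least 100 copies limma called 1 for LMNB1 and 4 for IGG, and division by the mean gave 1 for IGG. No share of all families is given for the edgeR, DESeq2 and 100-copy counts, so no trait of ERV1 is read from them.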

How the data were processed

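CUT&RUN was measured in 38 samples, of which the 36 with LAP2B, LMNB1 or IGG were used and 2 H3K9me3 samples were left aside. The authors, by the methods they describe, aligned reads to mm39 with Bowtie2 2.3.5.1, filtered with SAMtools 1.10 and computed binned coverage with deepTools, scaled by yeast reads (sacCer3). The values deposited per TE copy are spike-in scaled signal, kept here as signal; how bins were joined to copies is not given in the sources used here. Gene tables and the modified z scores were not used.

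Copies were averaged by subfamily, families under 10 copies were left out, and 0.1 of the median family was added before log2, so log2 changes of low families are understated. All 24 LAP2B libraries entered 1 limma 3.58.1 model (R 4.3.3; 8 group means, eBayes with trend, two-sided), the LMNB1 and IGG libraries models of their own, with Benjamini-Hochberg adjustment over the 1205 families. Whole reads were recovered within a tolerance of 0.05 read (at least 99.9997% of values) for edgeR 4.0.16 and DESeq2 1.42.0. No counting interval is given, since replicates bear the error. Ratios to IGG used stage-matched WT libraries. The limma fit was tested on simulated data.

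Subfamilies named in the text are all members of the MLV-like, GLN, VL30, MuRVY and MuRRS/LTRIS lists; for each mutant the 4 largest called rises and falls without overlap among those of at least 50 copies; 3 each for stage contrasts; and the 4 highest and lowest in WT LAP2B over IGG. Members and lists were chosen with earlier results of these data known. No sequence is printed, because copies are given without coordinates. Tables were handled with Python 3.11.15, pandas 2.3.3 and numpy 2.4.6.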

Additional observations from a re-analysis of the deposited data

Results flagged for a closer look

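The effect of losing the receptor, the lamins or both differed between naive mESCs and EpiLCs by an interaction test (limma, EpiLC minus naive) for 14 (LBRKO), 39 (TKO) and 62 (QKO) ERV1 subfamilies (26.7%, 18.6% and 53.8% of all families). These are differences in LAP2B signal, which the paper did not use to map lamina-bound domains in mutant EpiLCs. With the median over copies the counts were 1, 4 and 11, and without 1 library the LBRKO count was 7 to 22. Division by the mean gave 29 higher and 3 lower for LBRKO (28.4% and 5.48% of all families). In LBRKO the 3 largest called differences among subfamilies of at least 50 copies were -0.38 for RLTR4_Mm (0.35 naive, -0.02 EpiLC), 0.34 for MER67D (-0.65 and -0.31) and -0.27 for LTR73 (0.50 and 0.23). In TKO they were -0.56 for LTRIS2 (0.55 and -0.01), -0.51 for LTRIS4A and -0.45 for RLTR1B-int. In QKO they were -0.82 for LTRIS3 (0.98 and 0.16), -0.76 for RLTR4_Mm (1.00 and 0.24) and -0.75 for LTRIS4A. By the median over copies the calls of LTRIS2 in TKO (-0.44) and of LTRIS3 (-0.62 in QKO) and RLTR4_Mm (-0.86 in QKO) were kept, and the other 6 were lost, with LTRIS4A at -0.22 in TKO and 0.01 in QKO.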

How the results depend on the processing

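Taking the median over copies instead of the mean gave in naive mESCs 23 calls for LBRKO on the spike-in scale and 50, 30 and 57 for LBRKO, TKO and QKO on the relative scale, 31 for QKO against TKO, and in EpiLCs 1 and 18 for LBRKO and TKO on the spike-in scale, 22, 0 and 7 on the relative scale, 3 for the WT stages and 1, 4 and 11 for the interactions. Division by the mean over copies gave 38 (TKO) and 72 (QKO) in EpiLCs, 47 for the WT stages, 1 for IGG and 32 for the LBRKO interaction. At least 100 copies per family gave 3 for naive LBRKO and 5 for EpiLC TKO on the spike-in scale, 1 for LMNB1 and 4 for IGG. edgeR gave 0 for EpiLC TKO on the spike-in scale and 1 for IGG, the spike-in factor on reads gave 0 for EpiLC TKO and 2 for LBRKO, and DESeq2 gave 1 for QKO against TKO in EpiLCs, 7 for LMNB1 and 7 for IGG. Where a count of ERV1 calls has no share of all families beside it, in this section or above, it shows dependence on the setting and no trait of ERV1.

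Replicate numbers did not pair libraries (same-number correlations of deviations had a median of -0.005 over 84 pairs, range -0.335 to 0.323, and 5 of 24 libraries were closest to their own number). With a replicate block the naive LBRKO spike-in count was 4 and the EpiLC TKO one 0; no other count moved by over 1.5 times.

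Leaving out 1 library gave, for naive LBRKO, TKO and QKO, 0 to 11, 114 to 119 and 119 calls on the spike-in scale and 66 to 76, 68 to 73 and 92 to 96 on the relative scale, and 65 to 76 for QKO against TKO. In EpiLCs it gave 0, 0 to 117 and 119, then 40 to 48, 8 to 24 and 34 to 45, and 0. The WT stages had 10 to 30 (15 and 16 without naive replicates 2 and 1), LMNB1 0 to 1, IGG 0, and the interactions 7 to 22 (LBRKO; 7 without WT EpiLC 2 or LBRKO naive 3, 22 without WT naive 3), 29 to 43 and 58 to 67.

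The ERV1 level against all copies, as log2, moved from the median-based to the mean-based value: in naive WT, LBRKO, TKO and QKO from 0.0820, 0.0587, 0.151 and 0.168 to 0.0324, -0.0501, 0.0666 and -0.0519; in EpiLCs from 0.0631, 0.0405, 0.0379 and 0.0565 to -0.0364, -0.0784, -0.0730 and -0.0734; for LMNB1 from 0.0506 and 0.0481 to -0.0129 and -0.0490. The log2 ratio of antibody to IGG on the relative scale, by median over copies, was -0.0283 and 1.237e-06 (naive LBRKO, QKO), -0.0278, -0.0190 and -0.00912 (EpiLC LBRKO, TKO, QKO) and -0.0584 (EpiLC LMNB1). Of the 253 called changes of the 41 named subfamilies, division by the mean changed the sign of 11 (3 of them called the other way), kept the call of 206, and the median over copies changed the sign of 10 and kept 111. For the 54 changes named as largest rises or falls, over 907 alternatives, 862 kept call and direction, 44 lost the call and 1 reversed: LTRIS4B in EpiLC QKO, from 0.20 to -0.0331 without the copies highest in IGG. The causes were not tested. These 54 changes were picked as the largest called ones, which by itself favours keeping the call. With a median of 8 to 29 reads, single copies were not tested.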
